A study of Homo sapiens with 18 samples.

Results

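Interleukin-1β, encoded by IL1B, was present at opposite levels under 2 hairpins against fibrillarin: its RNA was higher than in the control under the hairpin SH2 and lower under the hairpin SH3. The measurements below describe IL1B together with 9 other secreted inflammatory cytokines, IL1A, IL6, IL11, LIF, CXCL1, CXCL2, CXCL3, CXCL8 and CSF2, and give for each whether it moved in opposite directions too. The 10 genes were taken by symbol from the deposited table of 17017 genes, and all 10 were found. The group was selected on the RNA and footprint changes of IL1B against the control, so the values of IL1B are given as a description with no test. The other 9 were tested.

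The cells are MDA-MB-231, an established human line of triple-negative breast carcinoma, cultured with insulin in the medium. They were transduced with lentivirus carrying a pLKO.1 vector, with a scramble hairpin (label SC, read here as the scramble control) or with 1 of 2 hairpins against fibrillarin mRNA (labels SH2 and SH3), and all 3 treatments went through puromycin selection and a short cycloheximide treatment before lysis. Whether SH2 is the knockdown 1 or the knockdown 2 of the protocols is not given in the labels. Fibrillarin (FBL) is the nucleolar enzyme that places 2′-O-methyl groups on ribosomal RNA. From each treatment, 3 libraries of cytoplasmic RNA and 3 of ribosome-protected footprints were sequenced, 18 libraries in all. The labels do not say whether the replicates came from separate cultures, so p-values measure the spread between these libraries, which may be technical.

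Interleukin-1α and interleukin-1β bind the same receptor, IL1R1, which needs the accessory protein IL1RAP to signal to NF-kappaB. Interleukin-1β is made as a precursor in the cytosol and is cut, usually by caspase-1, before release. Interleukin-6, interleukin-11 and LIF signal through the shared receptor chain gp130 (IL6ST) to STAT3. CXCL1, CXCL2, CXCL3 and CXCL8 (interleukin-8) attract neutrophils through the receptors CXCR1 and CXCR2, and CSF2 (GM-CSF) stimulates granulocytes and macrophages. The mRNAs of many of these cytokines are made from promoters that bind NF-kappaB, AP-1 and C/EBP factors, and are short-lived. Triple-negative carcinoma cells, this line among them, are known to secrete several of them.

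The promoters are shown for the neighbouring genes IL1A and IL1B, whose RNA levels were ordered differently over the 3 treatments, for the 3 close paralogs CXCL1, CXCL2 and CXCL3, which rose together under SH2, and for IL11, the cytokine that fell under both hairpins. Each line gives the 150 bases before the annotated start, 5′ to 3′, from RefSeq on build GRCh38.p14. Capitals mark matches on either strand to the kappaB motif, to AP-1 (TGANTCA), to C/EBP (TTNNGNAA) or to the TATA box (TATAAA). In CXCL1, CXCL2 and CXCL3 the capitals cover 2 overlapping kappaB matches.
IL1B, chr2:112836780-112836929, minus strand: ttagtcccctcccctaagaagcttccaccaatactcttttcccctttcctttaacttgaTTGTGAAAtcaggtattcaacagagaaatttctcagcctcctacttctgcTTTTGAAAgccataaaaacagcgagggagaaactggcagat
IL1A, chr2:112784494-112784643, minus strand: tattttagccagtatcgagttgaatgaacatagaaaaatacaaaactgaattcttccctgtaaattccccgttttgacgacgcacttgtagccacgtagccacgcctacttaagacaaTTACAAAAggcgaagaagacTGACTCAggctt
CXCL1, chr4:73869243-73869392, plus strand: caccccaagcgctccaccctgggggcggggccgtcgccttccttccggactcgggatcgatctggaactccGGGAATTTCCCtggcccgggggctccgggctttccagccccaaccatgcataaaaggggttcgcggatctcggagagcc
CXCL2, chr4:74099196-74099345, minus strand: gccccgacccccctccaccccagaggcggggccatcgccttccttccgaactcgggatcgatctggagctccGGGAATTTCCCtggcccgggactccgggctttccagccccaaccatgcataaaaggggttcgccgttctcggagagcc
CXCL3, chr4:74038690-74038839, minus strand: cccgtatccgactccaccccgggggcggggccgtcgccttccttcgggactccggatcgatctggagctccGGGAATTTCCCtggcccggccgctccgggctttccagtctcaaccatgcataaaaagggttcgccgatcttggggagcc
IL11, chr19:55370464-55370613, minus strand: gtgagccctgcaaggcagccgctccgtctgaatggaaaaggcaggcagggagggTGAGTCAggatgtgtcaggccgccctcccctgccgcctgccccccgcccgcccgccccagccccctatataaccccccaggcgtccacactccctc
RefSeq promoters were found for 9 of the 10 genes, all but LIF. In the 250 bases before the start, a kappaB match stood in 4 of these 9 (CXCL1, CXCL2, CXCL3 and IL6) and in 5.92% of 13249 promoters of the same length. An AP-1 match stood in 3 (IL1A, IL11 and CXCL8; 4.77% of all promoters), a C/EBP match in 4 (IL1A, IL1B, IL6 and CXCL2; 25.6%) and a TATA match in 2 (IL1A and CXCL8; 7.46%). A match is a description of the letters and not a measured site.

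Depth and the knockdown were as follows. Total counts ran from 23469830 to 27629488 in the RNA libraries and from 1662705 to 6098648 in the footprint libraries, the shallowest being SH3 replicate 1. Levels are given as CPM (reads of a gene scaled to the TMM-adjusted size of the library), within a library kind, and are compared within a gene, since no transcript length was used. FBL RNA was at 388 ± 36.4 CPM in SC (SD, n = 3), 5.67 ± 5.09 in SH2 and 3.49 ± 0.612 in SH3, which is 1.46% and 0.898% of SC. Of the 8 genes expected at high levels in this line, SPARC was near absent (0.58 CPM in SC). ESR1 and PGR had 3 counts or fewer in every RNA library and CDH1 was at 0.337 CPM in SC, while ERBB2 (95.3 CPM) and KRT19 (495 CPM) were detected.

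Single libraries were often the highest or lowest of their group for these genes. SH3 replicate 1 was the highest SH3 library in RNA for 9 of the 10 cytokines, all but IL11. SC replicate 3 was the lowest SC library for 9 of the 10, again all but IL11, SH2 replicate 3 the lowest SH2 library for 8 and SH3 replicate 3 the lowest SH3 library for 7. In the footprints, where 8 of the cytokines had enough counts, SH3 replicate 1 was the highest of its group for 7. Replicate 3 was the lowest there for 7 in SC, 6 in SH2 and 5 in SH3. The low values of these genes thus went with the replicate number 3 in all treatments, and the cause of this was not tested. The share of all genes for which the same library was highest or lowest was not counted. Whether this holds for the cytokines more than for other genes is therefore not known. Values without 1 of these libraries stand beside the results below where a call or a direction turned on it.

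IL1B RNA was at 16.1, 18.2 and 10.5 CPM in SC replicates 1, 2 and 3, at 40.1, 49.3 and 29.4 in SH2, and at 7.68, 3.94 and 3.64 in SH3. The 3 groups did not overlap, and SH2 lay above SC and SC above SH3 in every library. The share of all genes whose groups do not overlap was not counted. A lack of overlap, here and below, is therefore only a description of the values. The means were 15.0 ± 3.97 CPM (SD, n = 3) in SC, 39.6 ± 9.92 in SH2 and 5.09 ± 2.25 in SH3. As log2 differences, SH2 lay 1.41 above SC (standard error, SE, 0.26), SH3 lay at -1.55 against SC (SE 0.28), and SH2 lay 2.96 above SH3 (SE 0.28), a 7.78-fold difference. Without SH3 replicate 1 the SH3 difference was -2.02. These are bulk libraries, in which fewer cells that make a transcript and less RNA per cell cannot be told apart.

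IL1B footprints had the same order. They were at 21.1, 24.9 and 14 CPM in SC, at 80.7, 67.1 and 56.0 in SH2 and at 10.5, 6.51 and 7.36 in SH3, again with no overlap between groups. The log2 differences were 1.80 (SE 0.22) for SH2 and -1.31 (SE 0.28) for SH3 against SC. In the authors' deposited table the IL1B log2 fold changes were 1.39 and -1.58 in RNA and 1.80 and -1.30 in footprints.

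**Figure D1:**
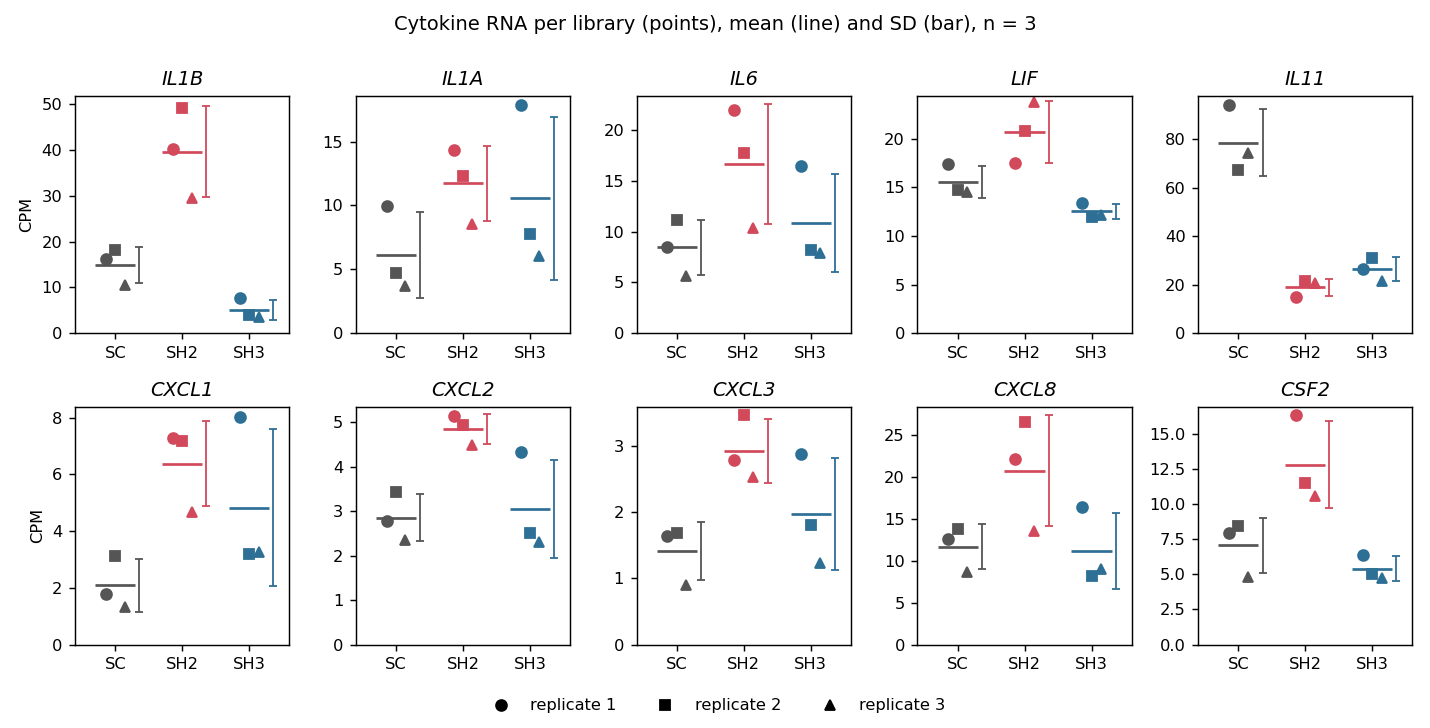
RNA level of each cytokine in CPM (vertical axes start at 0), by treatment; points are the 3 libraries, marked by replicate, lines the means and bars the SD. IL1B is highest in SH2 and lowest in SH3, IL11 is highest in SC, and SH3 replicate 1 (circles) is the highest SH3 library in every panel except IL11.

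Against SC, RNA of 8 of the 9 other cytokines rose under SH2 and IL11 fell. Over all genes tested 61.4% were called in this comparison, 31.1% as higher and 30.4% as lower. A gene is called here where the adjusted p, by edgeR's quasi-likelihood test with Benjamini-Hochberg adjustment over 12710 genes, is under 0.05. The median log2 change of the 9 was 0.86, beside 0.012 for all genes tested. Under SH3, 2 of the 9 were called, CXCL1 as higher and IL11 as lower, where 53% of all genes were called (27.8% higher and 25.2% lower). Their median was 0.096, beside 0.034 for all genes. The SC libraries are common to the 2 comparisons, so the 2 changes of a gene are not independent.

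IL1A, the gene next to IL1B that encodes interleukin-1α, did not have the group order of IL1B. Its RNA was at 9.96, 4.70 and 3.70 CPM in SC, at 14.3, 12.3 and 8.57 in SH2 and at 17.8, 7.80 and 6.05 in SH3. Both hairpin groups lay higher on average and both overlapped SC. The log2 change was 0.94 in SH2 (SE 0.39, adjusted p = 0.0490) and 0.79 in SH3 (SE 0.39, adjusted p = 0.104), and the difference between the hairpins was 0.15 (SE 0.38, adjusted p = 0.779). The SH3 value turned on single libraries: it was 0.14 (adjusted p = 0.762) without SH3 replicate 1, and it was called without SC replicate 1 (1.32, adjusted p = 0.00947) and without SH3 replicate 3 (1.04, adjusted p = 0.0406). The SH3 value was also called with the replicate number entered as a block (adjusted p = 0.00165, edgeR). The SH2 call was at the threshold and was lost in 7 of 12 alternative analyses. In the authors' deposited table IL1A was not called in RNA under SH2 (log2 0.92, adjusted p = 0.149).

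Of the gp130 cytokines, IL6 and LIF rose under SH2 and IL11 fell. IL6, a main inducer of the acute-phase response, was at 8.53, 11.1 and 5.66 CPM in SC, at 21.9, 17.7 and 10.3 in SH2 and at 16.4, 8.22 and 7.85 in SH3. Its SH2 group overlapped SC by 1 library, with a log2 change of 0.98 (SE 0.32, adjusted p = 0.0150). Under SH3 the value was 0.36 (SE 0.32, adjusted p = 0.358), and it was -0.11 without SH3 replicate 1.

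LIF, which maintains stem cells and is secreted by many carcinomas, had its groups in the same order as IL1B. Its RNA was at 17.4, 14.7 and 14.5 CPM in SC, at 17.5, 20.8 and 23.8 in SH2 and at 13.4, 12.0 and 12.2 in SH3. The 3 groups did not overlap, although SH2 replicate 1 and SC replicate 1 were almost level. The change was 0.41 in SH2 (SE 0.13, adjusted p = 0.0155) and -0.31 in SH3 (SE 0.14, adjusted p = 0.0695), so the lower level in SH3 missed the threshold.

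IL11, a cytokine that breast carcinoma cells secrete and that is linked to bone metastasis, fell under both hairpins. It was at 94.0, 67.3 and 74.2 CPM in SC, at 14.9, 21.4 and 20.6 in SH2 and at 26.7, 31.1 and 21.5 in SH3. Every hairpin library lay far below every SC library. The log2 change of IL11 RNA was -2.05 in SH2 (SE 0.17, adjusted p = 3.68e-07) and -1.57 in SH3 (SE 0.17, adjusted p = 5.46e-06). Neither call was lost in any of the 12 alternatives.

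The 4 chemokines all rose under SH2. CXCL1 was at 1.80, 3.13 and 1.34 CPM in SC, at 7.30, 7.19 and 4.66 in SH2 and at 8.04, 3.19 and 3.26 in SH3. It was the cytokine, IL1B included, with the largest increase in SH2 (1.61, SE 0.37, adjusted p = 0.00186) and the sole one called as higher in SH3 (1.21, SE 0.38, adjusted p = 0.0148). The SH3 call rested on single libraries: the change was 0.59 (adjusted p = 0.143) without SH3 replicate 1 and 0.97 (adjusted p = 0.0642) without SC replicate 3.

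CXCL2 was at 2.78, 3.42 and 2.36 CPM in SC, at 5.14, 4.93 and 4.48 in SH2 and at 4.32, 2.52 and 2.30 in SH3. Its SH2 libraries lay above all others (0.77, SE 0.24, adjusted p = 0.0118), while SH3 overlapped SC (0.10, adjusted p = 0.761, and -0.28 without SH3 replicate 1). CXCL3 had the fewest counts, at 1.63, 1.69 and 0.905 CPM in SC, 2.78, 3.46 and 2.52 in SH2 and 2.88, 1.80 and 1.23 in SH3. It rose in SH2 (1.05, SE 0.31, adjusted p = 0.00974), and SH3 (0.48, adjusted p = 0.227, and 0.062 without SH3 replicate 1) overlapped both other groups. CXCL1, CXCL2 and CXCL3 are near-identical copies in part, and how reads shared between them were counted is not given in the sources used here.

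CXCL8, the classical neutrophil attractant of epithelial cells, was at 12.5, 13.8 and 8.69 CPM in SC, at 22.1, 26.5 and 13.5 in SH2 and at 16.4, 8.22 and 8.97 in SH3. It rose in SH2 (0.83, SE 0.27, adjusted p = 0.0170), with SH2 replicate 3 inside the SC range. In SH3 the value was -0.06 (SE 0.28, adjusted p = 0.872), and it was 0.03 with libraries scaled by plain totals. CSF2 was at 7.92, 8.45 and 4.84 CPM in SC, at 16.4, 11.5 and 10.6 in SH2 and at 6.40, 5.03 and 4.75 in SH3. It rose in SH2 with no overlap (0.86, SE 0.22, adjusted p = 0.00352), and in SH3 was at -0.39 (SE 0.23, adjusted p = 0.165), overlapping SC.

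The SH2 calls depended on SC replicate 3, in which 9 of the 10 cytokines were lowest. Without it 3 of the 9 were called in SH2, in place of 9, while the count over all genes went from 7805 to 6893. The calls of IL1A (adjusted p = 0.172), IL6 (0.0665), LIF (0.0680), CXCL2 (0.0578), CXCL3 (0.0506) and CXCL8 (0.0747) were lost, and those of IL11, CXCL1 and CSF2 were not. Other single libraries also decided calls: IL6 missed the threshold without SH2 replicate 1 (adjusted p = 0.0692) or SH2 replicate 2 (0.0527), LIF without SC replicate 2 (0.0514) or SH2 replicate 3 (0.102), and CXCL8 without SH2 replicate 2 (0.106). In the authors' deposited table, which uses another test, IL6 (adjusted p = 0.0546) and CXCL8 (0.0596) also missed 0.05 in RNA under SH2.

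Markers of other cell types were read in the same libraries. The leukocyte list summed to between 157 and 161 CPM in the SH2 libraries, 58.9 to 116 in SC and 86.8 to 110 in SH3, and CD74 made up most of it (150, 82.1 and 88.6 CPM). The defining marker PTPRC was lower under SH2 (0.332 CPM) than under SC (1.35), and CSF1R slightly so (2.67 against 2.81). Higher under SH2 than under SC were LYZ (1.07 against 0.325 CPM), ITGAM (0.289 against 0.0409) and CD14 (3.44 against 2.61). CD163 and FCER1G had 3 counts or fewer in all 9 RNA libraries. TYROBP had no entry in the table. The fibroblast list, mostly COL1A1, summed to 29.4 to 45.4 CPM in SC, 57.2 to 109 in SH2 and 67.3 to 83.2 in SH3, and the endothelial list to 4.04 at most. Their part in the cytokine values was not tested.

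In RNA, none of the 9 other cytokines was called as higher under 1 hairpin and lower under the other (0 of 9, edgeR), where 244 of 12710 genes (1.92%) were, 88 of them (0.692%) as higher in SH2 and lower in SH3. LIF alone had opposite signs with an unadjusted p under 0.05 in both comparisons (edgeR). LIF was called in both directions by DESeq2's Wald test (SH3 at -0.34, adjusted p = 0.0476) and when only the groups compared entered the edgeR fit (-0.34, adjusted p = 0.0315). CSF2 was so called without SC replicate 3 (SH3 at -0.60, adjusted p = 0.0331). In the authors' deposited table LIF was called in SH2 (adjusted p = 0.0149) and missed 0.05 in SH3 (-0.34, adjusted p = 0.0531). In the remaining 14 of 17 alternatives the count was 0.

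**Figure D2:**
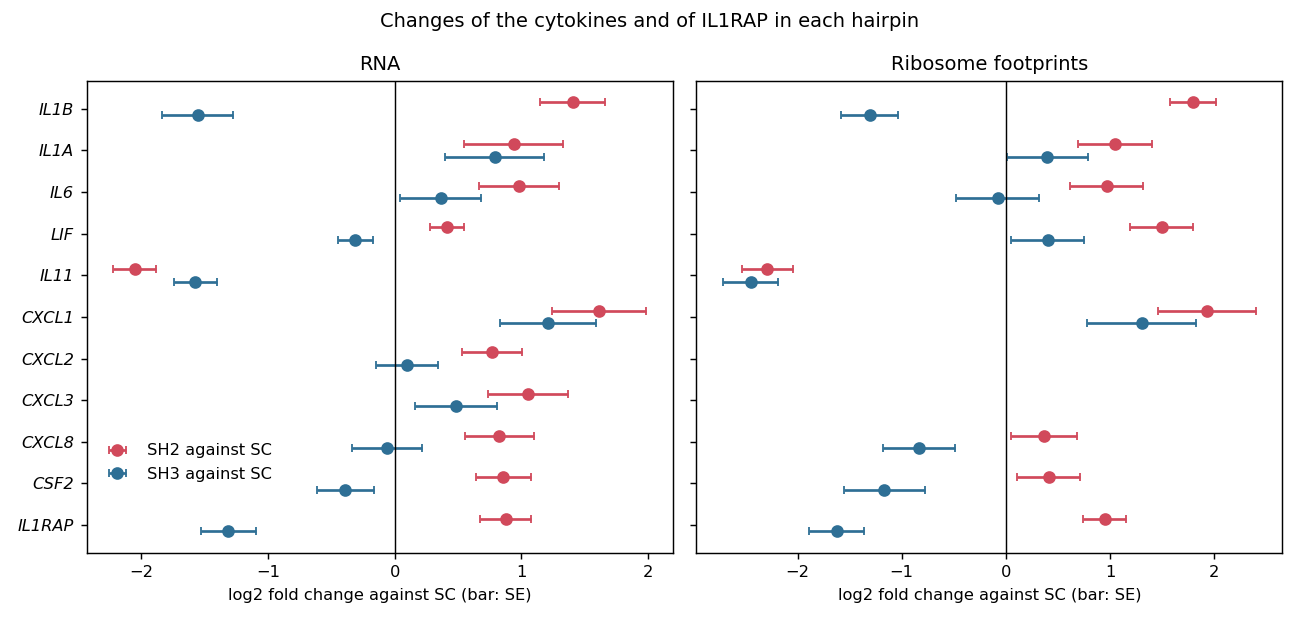
Log2 fold change against SC (horizontal axis) of the 10 cytokines and of IL1RAP in RNA (left) and ribosome footprints (right), under SH2 (red) and SH3 (blue); points are edgeR estimates and bars 1 SE. IL1B and IL1RAP lie on opposite sides of 0 for the 2 hairpins in both panels, and IL11 lies left of 0 for both; CXCL2 and CXCL3 have too few footprints to plot.

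The hairpins were also compared directly, a comparison that uses no SC library. RNA was higher in SH2 than in SH3 for LIF, CXCL2, CXCL8 and CSF2, and lower for IL11, 5 of the 9, where 39.3% of all genes were called (18.9% higher and 20.4% lower). CSF2 differed most, with a log2 difference of 1.25 (SE 0.22, adjusted p = 0.000631), followed by CXCL8 at 0.88 (SE 0.27, adjusted p = 0.0198), LIF at 0.72 (SE 0.14, adjusted p = 0.00091) and CXCL2 at 0.67 (SE 0.23, adjusted p = 0.0356). IL11 was at -0.48 (SE 0.17, adjusted p = 0.0371). The differences of IL6 (0.62, SE 0.31, adjusted p = 0.130), CXCL3 (0.57, SE 0.30, adjusted p = 0.150) and CXCL1 (0.40, SE 0.34, adjusted p = 0.380) did not pass with all libraries. Without SH3 replicate 1 these 3 were called too, IL6 at 1.07 (adjusted p = 0.0141), CXCL3 at 0.97 (adjusted p = 0.0276) and CXCL1 at 1.004 (adjusted p = 0.0216), and 7 of the 9 were called in all. Over all genes 4092 were called without that library, in place of 4993. The differences of LIF and CSF2 were called in all 12 alternatives, while that of CXCL2 was lost in 5, of IL11 in 4 and of CXCL8 in 3, each by leaving out 1 library.

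Footprints count ribosomes on the mRNA. CXCL2 and CXCL3 had 3 footprints or fewer in every library, the floor set here, and have no footprint comparison. Of the other 7, IL1A, IL6, LIF and CXCL1 rose and IL11 fell in SH2, 5 of 7 called, beside 44.2% of 10345 genes (21% higher, 23.2% lower). In SH3 IL11 and CSF2 fell, 2 of 7, beside 35.9% of all genes (16.9% higher, 19% lower). Their medians were 0.97 in SH2 and -0.08 in SH3, beside -0.0042 and -0.014 for all genes tested.

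IL11 footprints were at 26.5, 40.9 and 27.7 CPM in SC, at 6.30, 5.13 and 7.77 in SH2 and at 6.44, 5.48 and 5.26 in SH3. They fell, with log2 changes of -2.29 in SH2 (SE 0.25, adjusted p = 4.19e-06) and -2.45 in SH3 (SE 0.26, adjusted p = 7.87e-06), with all 6 hairpin libraries below all 3 SC libraries. LIF footprints were at 5.03, 6.74 and 2.84 CPM in SC, at 16.3, 11.7 and 11.3 in SH2 and at 7.02, 5.14 and 6.31 in SH3. SH2 stood above both other groups (1.5, SE 0.30, adjusted p = 0.000963), and SH3 overlapped SC (0.40, SE 0.35, adjusted p = 0.395), with the sign opposite to that of its RNA.

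CXCL1 footprints were at 3.73, 2.53 and 1.60 CPM in SC, at 15.2, 8.62 and 7.45 in SH2 and at 14, 4.79 and 3.16 in SH3. The rise in SH2 was 1.93 (SE 0.47, adjusted p = 0.00355), and SH3 at 1.31 (SE 0.52, adjusted p = 0.0613) overlapped SC and rested on single libraries: it was 0.59 without SH3 replicate 1, and it was called without SC replicate 1 (1.78, adjusted p = 0.0266) and without SH3 replicate 3 (1.71, adjusted p = 0.0258). In the authors' deposited table the SH3 value was 1.41 and was called (adjusted p = 0.0352).

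IL1A footprints were at 6.66, 13.1 and 5.33 CPM in SC, at 17.8, 19.8 and 9.71 in SH2 and at 14.6, 10.6 and 6.31 in SH3. They rose in SH2 (1.05, SE 0.35, adjusted p = 0.0238) with SH2 replicate 3 inside the SC range, while SH3 was at 0.40 (adjusted p = 0.446). The IL1A call was lost in 5 of 13 alternatives, and without SC replicate 3 the change was 0.80 (adjusted p = 0.118). IL6 footprints were at 10.1, 11 and 7.28 CPM in SC, at 16.3, 27.3 and 9.71 in SH2 and at 15.2, 6.51 and 6.31 in SH3. They rose in SH2 (0.97, SE 0.35, adjusted p = 0.0341) with 1 library inside the SC range, and the change was 0.49 (adjusted p = 0.311) without SH2 replicate 2 and 0.80 (adjusted p = 0.128) without SC replicate 3. The SH3 value of IL6 was -0.08 (adjusted p = 0.892).

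For CXCL8 the footprints spread widely, at 57.6, 29.9 and 28.0 CPM in SC, 64.8, 52.7 and 34.3 in SH2 and 37.5, 17.8 and 14 in SH3. With all libraries neither change against SC was called (0.37, adjusted p = 0.364, in SH2 and -0.83, SE 0.35, adjusted p = 0.0715, in SH3). The SH3 change of CXCL8 was called in 5 of 13 alternatives, among them that without SH3 replicate 1 (-1.28, adjusted p = 0.0126). Without SC replicate 1, its highest SC library, SH3 was at -0.39 (adjusted p = 0.363) and SH2 was called as higher (0.81, adjusted p = 0.0324). CSF2 footprints were at 6.01, 5.90 and 3.73 CPM in SC, at 6.67, 5.59 and 8.42 in SH2 and at 1.76, 2.74 and 2.10 in SH3, the last from 3 to 8 counts per library. They were lower in SH3 (-1.17, SE 0.39, adjusted p = 0.0273), a call lost in 6 of 13 alternatives, and at 0.41 (SE 0.30, adjusted p = 0.284) in SH2.

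CSF2 was thus called in SH2 in RNA and in SH3 in footprints, and in neither measure in both directions. In the footprints 0 of the 7 were called in opposite directions (edgeR; 0 in all 18 alternatives, DESeq2 included), and 0 had opposite signs with an unadjusted p under 0.05 in both. Of all genes 91 of 10345 (0.88%) were called so, 53 of them (0.512%) in the direction of IL1B. In the direct comparison footprints of LIF (1.09, SE 0.32, adjusted p = 0.0204), CXCL8 (1.2, SE 0.35, adjusted p = 0.0201) and CSF2 (1.58, SE 0.38, adjusted p = 0.00742) were higher in SH2 than in SH3, 3 of 7, beside 23.8% of all genes (12.1% higher and 11.6% lower). These calls were lost in 4 (LIF), 5 (CXCL8) and 1 (CSF2) of 13 alternatives, all but 3 of them by leaving out 1 hairpin library. Without SH3 replicate 1, IL6 (1.49, adjusted p = 0.0200) and CXCL1 (1.35, adjusted p = 0.0495) were called as well. All 7 estimates lay higher in SH2, the lowest being IL11 at 0.16 (SE 0.32, adjusted p = 0.748). With all libraries IL1A, IL6, CXCL1 and IL11 were not called. The share of all genes with a higher estimate in SH2 was not counted.

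**Figure D3:**
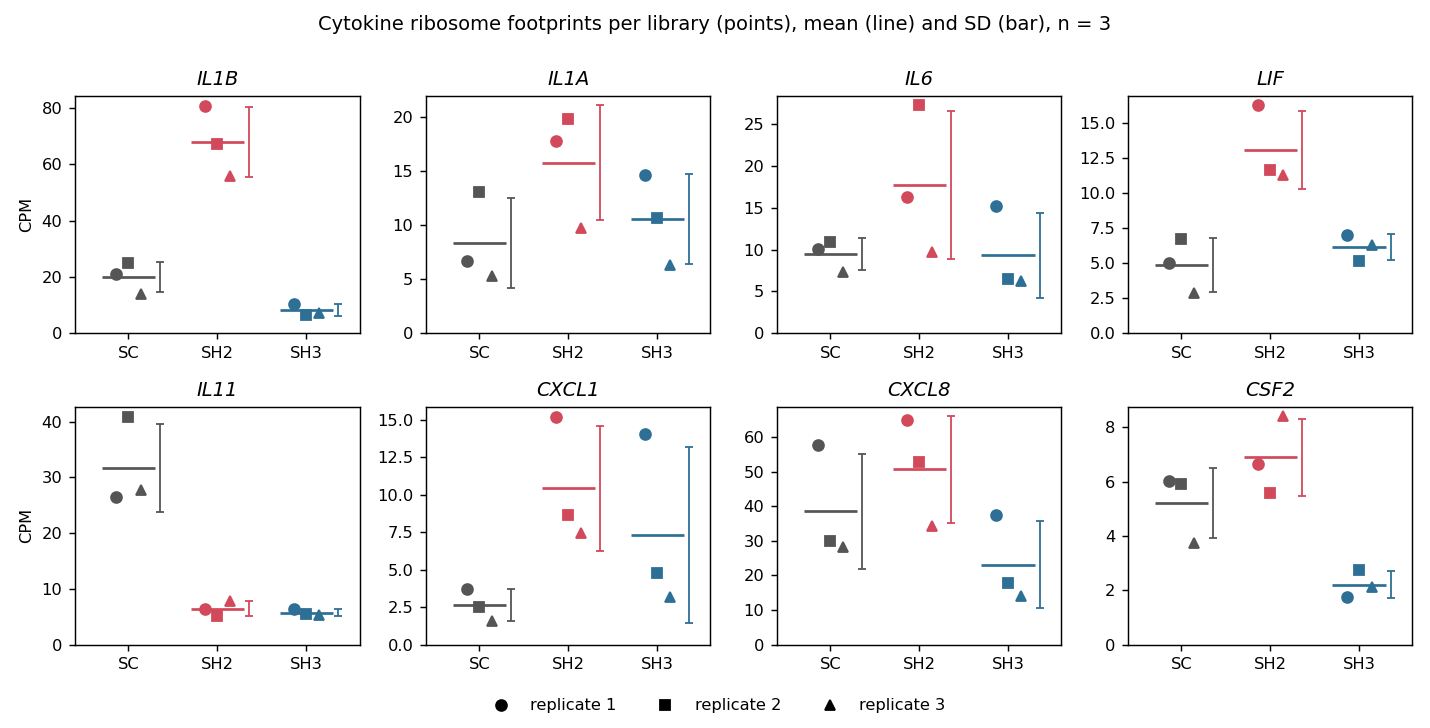
Ribosome footprints in CPM (vertical axes start at 0) of the 8 cytokines above the floor, by treatment; points are the 3 libraries, lines the means and bars the SD. IL1B and LIF stand highest in SH2, IL11 stands highest in SC, and CSF2 is lowest in SH3.

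Translational efficiency is the footprint change minus the RNA change of a gene, tested as an interaction over all 18 libraries. For IL1B it was 0.39 (SE 0.37) in SH2 and 0.25 (SE 0.47) in SH3, given with no test. Of the 7 tested, LIF alone was called in SH2 (1.08, SE 0.31, adjusted p = 0.0493), where 3.9% of 12531 genes were called (1.44% higher and 2.46% lower). This call was lost in 10 of 13 alternatives, with log2 values from 0.81 to 1.30 and adjusted p from 0.0119 to 0.271. In SH3 none of the 7 was called (0.686% of all genes, 0.375% higher and 0.311% lower), with IL11 at -0.86 (SE 0.34, unadjusted p = 0.0180, adjusted p = 0.266) the single one under an unadjusted 0.05. Between the hairpins none was called (0.016% of all genes), and none had an unadjusted p under 0.05. DESeq2's Wald test called 0 in both of these comparisons, with no result for CXCL1 or CSF2.

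The number of footprints relative to RNA differed widely among the 10 mRNAs. Summed over the 9 libraries of each kind, CXCL8 had 37.2 footprints per 100 RNA counts, a ratio above that of 97.9% of 12710 genes, whose median was 11.2. IL1B had 21.6, CXCL1 18.2, IL1A 15.6 and IL6 13.9, all above that median. CSF2 had 8.07, LIF 6.31 and IL11 5.59. CXCL2 had 4 footprints beside 827 RNA counts (0.484 per 100, with 1.01% of genes lower) and CXCL3 had 13 beside 485 (2.68 per 100). Which part of each transcript was counted is not given in the sources used here, and neither are the rules for reads that match more than 1 of the CXCL paralogs.

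Across genes, the RNA pattern of IL1B was matched more closely by genes outside the cytokines than by any of the 7 others compared (CXCL2 and CXCL3 have too few footprints to enter). Pearson's r of log2 CPM over the 9 RNA libraries, among 10334 genes measured in both kinds, was highest for IL1RAP (0.985), SEL1L (0.984), B3GNT5 (0.982), MAGED1 (0.981) and SLC9A7 (0.980). SEL1L is part of the machinery that disposes of misfolded proteins of the endoplasmic reticulum, B3GNT5 a glycosyltransferase and SLC9A7 a sodium-proton exchanger. The same 5 genes had r between 0.737 (SLC9A7) and 0.960 (MAGED1) with IL1B in the 9 footprint libraries, and IL1RAP 0.919. The points share 3 treatments, so these r mostly describe the order of the groups, and they carry no test. Among the other cytokines CSF2 ranked 76th (r = 0.911), LIF 149th (0.879) and CXCL8 321st (0.819), while IL6 (0.600), CXCL1 (0.372), IL1A (0.318) and IL11 (-0.17) ranked 1225th, 2431st, 2761st and 6166th. The RNA pattern of IL1A was most like those of SERINC3 (0.958), ICAM1 (0.948), TAP1 (0.944), GIT2 (0.936) and ZNF175 (0.930), with IL6 at 0.804 and CXCL1 at 0.792.

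IL1RAP encodes the accessory chain without which the interleukin-1 receptor does not signal. Its RNA was at 9.27, 13.1 and 9.60 CPM in SC, at 21.7, 20.5 and 16.6 in SH2 and at 6, 3.44 and 3.45 in SH3, with no overlap. Since the likeness was taken on these RNA values, they are a description, with log2 differences of 0.88 (SE 0.20) and -1.31 (SE 0.22). Its footprints, likewise given as a description, were at 17.7, 26.1 and 19.5 CPM in SC, at 35.2, 49.4 and 34.0 in SH2 and at 5.85, 8.22 and 5.61 in SH3. The log2 differences were 0.95 (SE 0.21) for SH2 and -1.63 (SE 0.27) for SH3 against SC, again with no overlap.

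**Figure D4:**
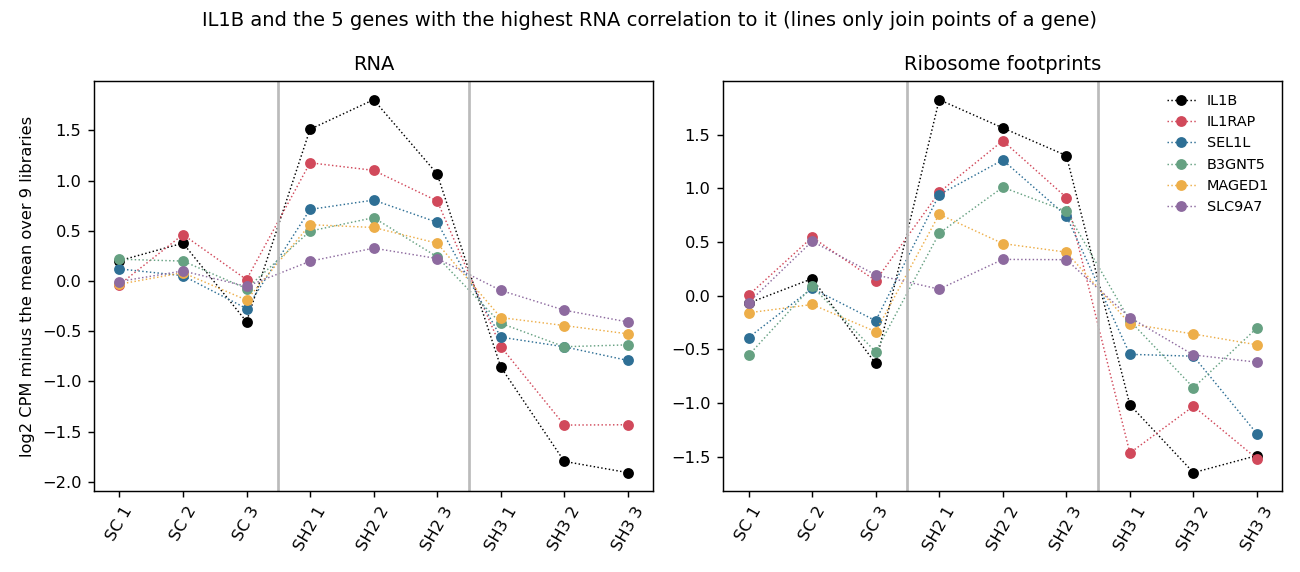
Log2 CPM minus the gene's mean over 9 libraries (vertical axis) for IL1B and the 5 genes with the highest r to it in RNA, in RNA (left) and footprints (right), for each library (horizontal axis); dotted lines join the points of a gene. All 6 genes are highest in the SH2 libraries and lowest in the SH3 libraries in RNA, with IL1B spanning the widest range, and the SLC9A7 footprints follow least.

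The other genes of these pathways were read from lists, whose counts stand beside the shares over all genes tested in RNA. Under SH2 31.1% of genes were called as higher and 30.4% as lower, under SH3 27.8% and 25.2%. Of 43 further cytokines, 39 were in the table and 21 had enough RNA counts: 6 rose and 4 fell in SH2 (median 0.19), 4 rose and 6 fell in SH3 (median 0.20), and 0 of 21 in RNA and 0 of 13 in footprints were called in opposite directions. CXCL10, an interferon-induced chemokine, had a mean of 0.150 CPM in SC and 0.834 in SH2, a log2 difference of 2.44 (SE 0.63). The difference was 4.21 without SC replicate 2 and between 1.86 and 2.69 without any other single library. CCL20 had a low mean of 0.190 CPM under SC and 0.892 under SH2, a log2 difference of 2.20 (SE 0.46). The SH3 means were also low, 0.200 CPM for CXCL10 and 0.376 for CCL20. CXCL10 and CCL20 may have passed the filter on low counts only through their SH2 libraries, which was not tested. Their differences are therefore given as a description, although both are among the 6 counted as higher in SH2. EBI3, a subunit of interleukin-27 and interleukin-35, rose in both (1.47 and 2.05, adjusted p = 0.00381 and 0.000348), and the chemokine CCL26 fell in SH3 (-1.99, adjusted p = 0.00184) and was at 0.26 in SH2 (adjusted p = 0.547).

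Of 20 genes of interleukin-1 receptor signalling tested in RNA, 9 rose and 7 fell in SH2 and 7 rose and 6 fell in SH3 (medians 0.10 and -0.08). IRAK2, a kinase of the receptor complex, rose in both hairpins, with a mean of 63.9 CPM in SH2 and 42.6 in SH3 against 15.5 in SC (2.05 and 1.46, adjusted p = 2.39e-08 and 8.09e-07). IRAK3, which restrains that signal, fell in both (-0.92 and -1.31, adjusted p = 0.000202 and 2.00e-05). PELI2, a ubiquitin ligase of the pathway, rose in both (0.72 and 1.15, adjusted p = 0.0326 and 0.00269), with the SH2 call lost without SC replicate 1 (0.41), SH2 replicate 2 (0.65) or SH2 replicate 3 (0.58). Besides IL1RAP, 1 gene of the 20 was called in opposite directions in RNA, SIGIRR, an inhibitory member of the receptor family, at 0.56 in SH2 (adjusted p = 0.0141) and -0.81 in SH3 (adjusted p = 0.00249). SIGIRR is named after its values were seen. Its footprints were not called in either hairpin (adjusted p = 0.182 and 0.555).

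Of 11 genes of interleukin-1 processing and release, 4 rose and 5 fell in SH2 and 2 rose and 4 fell in SH3. NLRP3, the sensor of the inflammasome that activates caspase-1, was at 13.5 CPM in SC and fell to 3.37 under SH2 and 1.72 under SH3 (-2 and -2.97, adjusted p = 4.62e-06 and 7.61e-07). Its footprints fell in both as well (-1.60 and -2.40, adjusted p = 0.00151 and 0.000402). GSDME, a pore-forming gasdermin, fell in both (-0.91 and -0.69, adjusted p = 2.01e-05 and 0.000296), and CAPN2, a calpain subunit, rose in both (0.96 and 0.34, adjusted p = 3.85e-06 and 0.0152), the SH3 call being lost without SC replicate 1 (0.26), SH3 replicate 2 (0.28) or SH3 replicate 3 (0.28). AIM2, a DNA sensor of another inflammasome, fell in SH2 (-0.88, adjusted p = 0.00232) and was at 0.26 in SH3 (adjusted p = 0.299).

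Among 13 genes of gp130 receptors and STAT3 signalling, 6 rose and 2 fell in SH2 and 5 rose and 1 fell in SH3. PTPN11, the phosphatase SHP2 of this and other receptor pathways, had the largest change of the list and fell in both (-1.67 and -0.77, adjusted p = 3.97e-08 and 4.28e-05), as did its footprints (-1.76 and -0.69, adjusted p = 4.05e-07 and 0.00136). IL6ST, the gp130 chain itself, rose in both (0.69 and 0.90, adjusted p = 0.00254 and 0.000460), as did JAK1 (0.54 and 0.87, adjusted p = 0.000410 and 1.21e-05). LIFR, the receptor of LIF, fell in SH2 (-0.80, adjusted p = 0.000831) and was at 0.10 in SH3 (adjusted p = 0.623). Of the chemokine and colony-stimulating factor receptors 3 were measured, and CXCR4, which binds none of these 10 cytokines, fell in both (-1.11 and -1.77, adjusted p = 0.0161 and 0.00135), with the SH2 call lost in 4 of 12 alternatives, among them those without SC replicate 1 (-0.81), SH2 replicate 2 (-0.96) or SH2 replicate 3 (-0.90).

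For regulators of cytokine mRNA decay, 3 of 15 rose and 6 fell in SH2, and 2 rose and 4 fell in SH3. ZC3H12A (Regnase-1), a nuclease that cleaves IL6 mRNA among others, rose in both (0.94 and 0.52, adjusted p = 0.000177 and 0.0144), the SH3 call being lost without SC replicate 1 (0.40), SC replicate 3 (0.48) or SH3 replicate 1 (0.33). RC3H1 (Roquin-1), which recognises stem-loops in cytokine mRNAs, fell in both (-0.61 and -0.57, adjusted p = 0.000771 and 0.00170), while its footprints were at 0.34 and -0.07 (adjusted p = 0.133 and 0.797). RC3H1 had a higher translational efficiency in SH2 (0.93, adjusted p = 0.0169) and was at 0.50 in SH3 (adjusted p = 0.339). Its paralog RC3H2 fell in SH3 (-0.71, adjusted p = 0.000158) and was at -0.19 in SH2 (adjusted p = 0.148; -0.34 and called without SH2 replicate 2). ZFP36L2, a binder of AU-rich elements that promotes decay, was the single one called in opposite directions. Its RNA was at 0.31 in SH2 (adjusted p = 0.0386, lost in 4 of 12 alternatives) and -0.92 in SH3 (adjusted p = 4.06e-05), and its footprints at 0.67 and -0.99 (adjusted p = 0.0229 and 0.00838). The footprint call in SH2 was lost in 3 of 13 alternatives, those without SC replicate 3, SH2 replicate 1 or SH2 replicate 3.

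Of 22 transcription factors of cytokine promoters and their regulators, 16 rose and 2 fell in SH2, and 13 rose and 1 fell in SH3, with medians of 0.59 and 0.42 beside 0.012 and 0.034 for all genes. RELB, a subunit of NF-kappaB, rose to 131 CPM under SH2 and 148 under SH3 against 39.2 in SC (1.74 and 1.92, adjusted p = 1.31e-07 and 1.67e-07). ATF3 (1.90 and 1.28, adjusted p = 1.58e-06 and 8.70e-05), IRF1 (1.70 and 1.26, adjusted p = 3.71e-08 and 9.52e-07) and HMGA2 (1.29 and 1.58, adjusted p = 4.71e-05 and 1.47e-05) rose in both. The footprints of ATF3 were at 0.38 and 0.43 (adjusted p = 0.297 and 0.281), neither called, and its translational efficiency was lower in SH2 (-1.53, adjusted p = 0.0167). None of the 22 in RNA, or of 21 in footprints, was called in opposite directions.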

How the data were processed

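RNA and ribosome footprints were compared in 18 libraries, 3 for each treatment and kind. A single deposited table was used. It holds whole-number read counts, DESeq2-normalized signal (the count divided by 1 size factor per library, as the authors made it), and log2 fold changes and p-values, which are the authors' own DESeq2 comparisons per the file headers. The submitters' processing notes name Bowtie 1.2.2 and DESeq2. Genome build, annotation and counting rules are not given in the sources used here. The deposited RD columns of SH2 and SH3 differ in 0 genes, so they were not used. Of the per-sample columns 0 were unmapped, and 0 gene names were blank.

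The deposited counts were tested with edgeR 4.0.16 (R 4.3.3): filterByExpr, TMM scaling, the two-sided quasi-likelihood test, 1 fit of 9 libraries for each kind and 1 fit of 18 for translational efficiency, with Benjamini-Hochberg adjustment over all genes tested. SE is the absolute log2 change divided by the square root of F. The biological coefficient of variation was 11.6% in RNA and 15.1% in footprints. A count of 3 or less in every footprint library was the floor. It covers counting error only, as no molecular identifiers are described. Replicate counts differed beyond counting noise in each pair within a group (chi-square per degree of freedom 3.55 to 58.7). Each library was entered as its own sample. Such spread can also arise between technical replicates, so it does not show that the replicates came from separate cultures. The scripts were tested on simulated data.

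The cytokines and the gene lists were chosen with earlier results of these data known. Named were the 10 cytokines, FBL, at most 4 genes per list (those called in RNA with the largest change) and the 5 genes most like IL1B and IL1A. Alternatives were DESeq2 1.42.0's Wald test and size factors, plain totals, no filter, other thresholds, fits of the compared groups only, a replicate block, thinned footprints and leaving out each library.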

Additional observations from a re-analysis of the deposited data

Results flagged for a closer look

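The results below are listed because the response to SH2 differed from the response to SH3 by a direct test of the difference (edgeR, adjusted over all genes tested). The same test called 39.3% of all genes in RNA and 23.8% in footprints, so a call by it is common. The share of all genes called in both measures was not counted. In RNA the log2 difference of SH2 minus SH3 was 1.25 for CSF2, 0.88 for CXCL8, 0.72 for LIF and 0.67 for CXCL2, and each was higher in the 3 SH2 libraries on average than in the 3 SH3 libraries. For IL11 it was -0.48. In footprints the difference was 1.58 for CSF2, 1.2 for CXCL8 and 1.09 for LIF. With all libraries CSF2, CXCL8 and LIF were called in both measures, with the sign of IL1B, but their footprint calls were lost in 1 (CSF2), 5 (CXCL8) and 4 (LIF) of 13 alternatives and the RNA call of CXCL8 in 3 of 12. CSF2 RNA was at 10.6 CPM or more in every SH2 library and at 6.40 or less in every SH3 library, and LIF RNA at 17.5 or more and 13.4 or less. CXCL8 RNA overlapped between the hairpins, since SH3 replicate 1 (16.4 CPM) lay above SH2 replicate 3 (13.5 CPM). The cause of these differences was not tested.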

How the results depend on the processing

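Of the single-gene values of the 9 other cytokines under the alternatives, 270 in RNA kept direction and side of the threshold, 32 lost their call, 12 gained one and 10 changed sign; in footprints these were 226, 25, 18 and 4, and in translational efficiency 240, 10, 0 and 19. Where a cause is not named below it was not tested. IL1B kept its direction against SC in every alternative in RNA (1.2 to 1.57 in SH2, -2.02 to -1.39 in SH3) and footprints (1.59 to 1.95 and -1.51 to -1.16).

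At an adjusted p under 0.01 the cytokines called were 4 (SH2), 1 (SH3) and 2 (SH2 against SH3) in RNA, 3, 1 and 1 in footprints, and 0 for translational efficiency in SH2. With a log2 change of 1 or more also required, 3 were called in RNA in SH2 and 1 between the hairpins. Without a filter on low counts, 4 were called in footprints in SH3. Thinning the footprint libraries to one depth left 3 calls in SH2 and 1 between the hairpins. The translational efficiency call in SH2 (LIF) fell to 0 with DESeq2 size factors, plain library totals, the compared groups alone, the replicate block and thinned footprints. For translational efficiency that block joins the RNA and footprint libraries of the same treatment and number. Such pairs had a negative r for numbers 1 and 2 of SC and SH2 (values below). The count of cytokines called in opposite directions in RNA became 1 with DESeq2's Wald test and with the compared groups alone.

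Leaving out 1 library gave 3 to 9 calls in RNA in SH2, 1 to 3 in SH3 and 2 to 7 between the hairpins; 3 to 5, 1 to 3 and 1 to 5 in footprints; 0 to 1 for translational efficiency in SH2; and 0 to 1 for opposite calls in RNA. The lows came without SC replicate 3 (RNA in SH2), SH3 replicate 1 (RNA in SH3) and SH3 replicate 2 (RNA between the hairpins). Over all genes, leaving out 1 library gave 6893 to 7642, 5661 to 6415 and 3726 to 5080 RNA calls in these 3 comparisons. In footprints it gave 3740 to 4807, 2645 to 3771 and 1541 to 2104. Signs that turned on 1 library were, in RNA in SH3, those of IL6 (-0.11 to 0.61), CXCL2 (-0.28 to 0.25), CXCL8 (-0.48 to 0.087) and, among listed genes, CXCL10 (-0.16 to 2.19) and AIM2 (-0.035 to 0.38), and in SH2 that of CCL26 (-0.19 to 0.52). IL1A between the hairpins ran from -0.12 to 0.78 in RNA, and IL6 footprints in SH3 from -0.51 to 0.15. For translational efficiency in SH2 the ranges were -0.50 to 0.60 (IL1A), -0.47 to 0.31 (IL6), -0.49 to 0.018 (IL11) and -0.13 to 0.91 (CXCL1), in SH3 -0.999 to 0.11 (IL1A) and -0.36 to 0.68 (CXCL1), and between the hairpins -0.024 to 0.76 (IL6) and -0.0013 to 0.44 (CXCL1). With thinned footprints IL1A (-0.12) and IL11 (0.10) in SH2 and CXCL1 between the hairpins (-0.17) changed sign, as did IL6 in SH2 with DESeq2 size factors (0.0021).

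Plain library totals moved the median RNA change of all genes to 0.11 in SH2 (0.012 with TMM) and to 0.12 in SH3 (0.034 with TMM), and CXCL8 in SH3 from -0.059 to 0.029.

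For all genes, requiring a log2 change of 1 or more left 2336, 1623 and 955 RNA calls and 1798, 1356 and 874 footprint calls (SH2, SH3 and SH2 against SH3). An adjusted p under 0.01 left 6203 (SH2), 5001 (SH3) and 3152 (between the hairpins) in RNA, and 3138, 2304 and 1301 in footprints. At an adjusted p under 0.05, footprint calls between the hairpins were 1541 without SH3 replicate 2 and 2459 with all libraries. For translational efficiency the lowest and highest counts were 100 and 910 (SH2), 10 and 349 (SH3), and 0 and 219 (between the hairpins). Genes called in opposite directions ran from 8 to 369 in RNA and from 2 to 143 in footprints.

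Same-numbered libraries of different treatments had deviations from their group means with r of -0.0834 to 0.435 in RNA (over 0.1 in 7 of 9 pairs) and -0.117 to 0.314 in footprints (5 of 9). Differently numbered libraries were over 0.1 in 4 of 18 pairs in RNA and 3 of 18 in footprints. Part of the spread thus went with the number, but not in every pair, and the main fits have no replicate block. A spread shared by number therefore stays in their error. Of SC and SH2 alone, all 3 pairs were over 0.1 in RNA (0.295 to 0.358) and in footprints (0.249 to 0.297), and with a replicate block the cytokine calls of SH2 against SC in these 2 measures did not change. The best partner had a library's own number in 14 of 18 cases in RNA and 10 of 18 in footprints. With a replicate block, 4 cytokines were called in footprints in SH3, CXCL1 (1.41) and CXCL8 (-0.80) among them, IL1A was called in RNA in SH3 (0.77, adjusted p = 0.00165), and genes called in opposite directions numbered 369 in RNA and 143 in footprints. Between RNA and footprint libraries of the same treatment and number r was -0.49 (SC 1), -0.46 (SC 2), -0.304 (SH2 1) and -0.313 (SH2 2), while crossing the numbers 1 and 2 gave 0.458 to 0.576. Footprint depth limits CSF2 (3 to 8 counts per SH3 library), CXCL2 and CXCL3.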
